A study of Mus musculus with 15 samples.

Results

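The genes described here carry the gonadotropin signal from the cell surface to protein kinase A in mouse cumulus cells, which are specialised granulosa cells attached to the oocyte within its follicle. A total of 10 genes were chosen, the receptors Fshr and Lhcgr, the G protein gene Gnas, the adenylyl cyclases Adcy6, Adcy7 and Adcy9, the protein kinase A subunits Prkar2a, Prkar2b and Prkaca, and the signal regulator Rgs2. Every probe bearing one of these symbols in the authors' table of log2 values was kept, which gave 13 probes among the 20855 gene probes of that table. Prkar2b had 3 probes, Rgs2 had 2, and each of the other 8 genes had 1.

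Expression was measured on 15 one-colour Agilent arrays, 5 for each of 3 stages, in B6CBAF1/J mice. The NC1 stage stands for 3-week-old juveniles, whose unexpanded complexes held prophase I oocytes described as developmentally incompetent or poorly competent. The C1 stage stands for adults of 8 weeks with unexpanded complexes and competent prophase I oocytes. Complexes of both stages were punctured out of large follicles and freed of the oocyte by pipetting. The C2 cells surrounded fully competent metaphase II oocytes in expanded complexes, were flushed from the oviduct of superovulated adults of 8 weeks, and were dispersed with hyaluronidase. According to the methods of the study the superovulated animals received an equine gonadotropin with FSH activity followed by human chorionic gonadotropin, and each stage was drawn from 5 groups of animals whose cells were pooled. From NC1 to C1 the stage cannot be told apart from age. From C1 to C2 it cannot be told apart from the injected hormones, the oviduct as the place of collection or the enzyme. Nothing says on which days the pools were made, and p-values measure the spread between these pools.

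Follicle-stimulating hormone and luteinising hormone act through Fshr and Lhcgr, receptors of the G protein-coupled class. Both activate Gs alpha, the product of Gnas, which turns on adenylyl cyclase, and the cAMP that is formed binds the regulatory subunits of protein kinase A and releases its catalytic subunits. Fshr is a hallmark of granulosa cells before ovulation, Lhcgr is acquired by the mural granulosa cells of large follicles and is also present on theca and luteal cells, and Prkar2b is a well-known target of gonadotropins in the rat ovary. In bulk samples such as these, fewer cells of a type and less RNA per cell cannot be told apart.

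The start regions of the genes with the widest changes between stages are shown first, because Fshr, Prkar2b and Adcy9 moved together and Lhcgr did not. The sequences are those of RefSeq on GRCm38.p6 and hold the 250 bases before the start of transcription, read 5′ to 3′ on the strand of the gene. They lie at chr17:89200676-89200925 for Fshr, chr12:32061278-32061527 for the upstream of 2 Prkar2b starts, chr16:4420499-4420748 for Adcy9 and chr17:88792015-88792264 for Lhcgr, all on the minus strand. Capitals mark the letters CACGTG (an E-box, its own reverse complement), TGACG or CGTCA (the core of a cAMP response element) and GGGCGG or CCGCCC (a GC box).
Fshr: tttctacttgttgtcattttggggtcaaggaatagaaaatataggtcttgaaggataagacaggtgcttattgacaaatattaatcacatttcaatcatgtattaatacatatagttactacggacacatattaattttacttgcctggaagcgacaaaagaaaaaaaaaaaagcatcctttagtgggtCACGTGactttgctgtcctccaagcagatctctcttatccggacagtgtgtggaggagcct
Prkar2b: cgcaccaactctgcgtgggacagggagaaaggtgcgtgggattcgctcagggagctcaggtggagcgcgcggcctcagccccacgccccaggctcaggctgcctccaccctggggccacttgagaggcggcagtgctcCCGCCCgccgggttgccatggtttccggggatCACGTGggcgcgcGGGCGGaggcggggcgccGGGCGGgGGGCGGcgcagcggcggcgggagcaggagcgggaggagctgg
Adcy9: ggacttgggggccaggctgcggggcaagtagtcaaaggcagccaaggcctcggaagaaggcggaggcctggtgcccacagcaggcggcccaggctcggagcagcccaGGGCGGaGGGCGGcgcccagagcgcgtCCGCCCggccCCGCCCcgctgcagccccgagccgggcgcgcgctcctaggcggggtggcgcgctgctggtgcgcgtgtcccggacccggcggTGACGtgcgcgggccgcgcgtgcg
Lhcgr: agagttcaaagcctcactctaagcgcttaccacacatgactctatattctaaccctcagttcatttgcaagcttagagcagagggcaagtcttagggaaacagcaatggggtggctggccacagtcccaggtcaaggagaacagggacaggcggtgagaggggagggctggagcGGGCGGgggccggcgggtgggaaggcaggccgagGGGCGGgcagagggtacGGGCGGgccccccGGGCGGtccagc
An E-box stood 61 bases before the start of Fshr and 80 bases before that of Prkar2b, and the 250-base windows of 6.02% of all 32851 RefSeq starts held one. The windows of Adcy9 and Lhcgr held no E-box. The 9 genes with a start region given had 16 such windows, some of Gnas overlapping, and 3 of the 16 held an E-box, the third being of Prkaca. The full element TGACGTCA, in which the core is read on both strands, was found in 0 of the 16 windows and in 1.55% of all windows. Its core was found in 7 of the 16 windows, of 5 genes, among them Adcy9 at 24 bases and Rgs2 at 185 and 67 bases, and in 17.8% of all windows. The Lhcgr window held 4 GC boxes within 76 bases of the start. The Prkar2b and Adcy9 windows shown also held 4 each, and the Fshr window held none. At least 1 GC box was held by 8 of the 16 windows and by 32.7% of all windows. GC made up 36.8% of the Fshr window, 63.2% of that of Lhcgr and 75.6% of that of Prkar2b, with a median of 52.4% over all windows. These matches describe letters and not bound sites.

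Levels are given as log2 of the background-subtracted intensity minus the median of the array over its valid probes, and a probe counted as valid where every stage had 4 or more of its 5 arrays well above background. A level says nothing of the abundance of one gene against another, since probes differ in brightness. Of the 13 probes, 11 were valid, for 8 genes. The probes of Lhcgr and Prkaca were too dim in at least 1 stage and were tested apart. No spot of a member probe was saturated or marked as an outlier, and all 13 accessions matched the same symbol in RefSeq.

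The identity of the cells was checked with lists of markers. Of 10 granulosa and cumulus markers, 9 were seen on all NC1 arrays, 10 on all C1 arrays and 9 on all C2 arrays, Kitl being above background on no C2 array. The summed signal of 7 theca and stroma markers, in multiples of the array median, was 51.8 and 34.0 in NC1 replicates 1 and 2 against 11.9 to 16.1 in the other NC1 arrays, and it was 10.5 to 16.4 at C1 and 0.98 to 1.32 at C2, where Pdgfra was on no array above background. NC1 replicates 1 and 2 also had the highest NC1 sums of haemoglobin and other red cell genes (301 and 389, each at least 3.01 times that of any other NC1 array) and of 10 oocyte markers (50.9 and 41.7 against 12.8 to 19.6). At C2 the oocyte sum was 13.6 to 17.3 in replicates 1 to 3 and 0.672 and 0.782 in replicates 4 and 5. The oocyte markers did not move together. In C2 replicates 1 to 3 Gdf9 and H1f8 read between 2.13 and 3.06, with C1 means of 2.80 and 2.76. Zp1 and Zp3 read between -3.82 and -3.48 there, with C1 means of 1.04 and 1.44, and Zp2 was seen on no C2 array. Markers of oviduct epithelium summed to between 6.23 and 11.8 on the NC1 and C1 arrays and to 24.9 to 30.2 at C2, with Pax8 seen on no array. From C1 to C2, 2 of the 5 valid ones were called higher and 2 lower. The means of Krt8 and Krt18 went from 1.98 to 3.28 and from 2.08 to 3.85. Those of Epcam and Tppp3 went from -2.36 to -3.41 and from -1.43 to -2.44. Ovgp1, the remaining valid one, was not called, with means of -0.76 ± 1.73 at C1 and 1.52 ± 1.54 at C2 (SD). Its highest C2 readings were those of replicates 4 and 5, at 3.06 and 2.73. Leukocyte markers summed to between 0.397 and 1.25 on the NC1 and C1 arrays and to 3.39 to 4.57 at C2. From C1 to C2, 2 of the 4 valid ones were called higher and 0 lower. The mean of Cd52 went from -1.56 to 1.46, the widest rise of the list and its brightest probe at C2. That of Ptprc, seen on 1 C1 and 4 C2 arrays, went from -4.72 to -4.11. Values of members that part along these lines are pointed out below, and the part of these cells in any result was not tested. Arrays of a stage correlated at 0.976 to 0.996 across the valid probes, and 18368 to 24496 gene probes per array were well above background.

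The first comparison asked what changed between juvenile and adult cumulus cells around prophase I oocytes. None of the 11 valid member probes passed the limma test from NC1 to C1 at an adjusted p of 0.01, where 2.52% of all 17324 valid probes did (1.75% higher and 0.768% lower). The groups overlapped for all 11, while 5.97% of all valid probes did not overlap. At an unadjusted p below 0.05 there was 1, Adcy6. The one-factor test that the study's methods name likewise called 0. For each comparison of 2 stages, here and below, it was run on those 2 stages alone, which the study does not describe. The 11 changes had a median of -0.06 as against -0.03 over all valid probes. From C1 to C2 the picture was different. The limma test called 9 of the 11 probes, 7 lower and 2 higher, where 47.6% of all valid probes were called, 22.2% lower and 25.4% higher. The median change was -0.76 over the 11 probes and 0.02 over all valid probes. From NC1 to C2, 8 of the 11 were called, 7 lower and 1 higher, against 51.5% of all valid probes (24.9% lower and 26.5% higher), and the groups did not overlap for 7 of the 11 and for 48.9% of all valid probes. The C1 arrays enter both successive comparisons, and the values of each are given side by side for every gene.

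**Figure D1:**
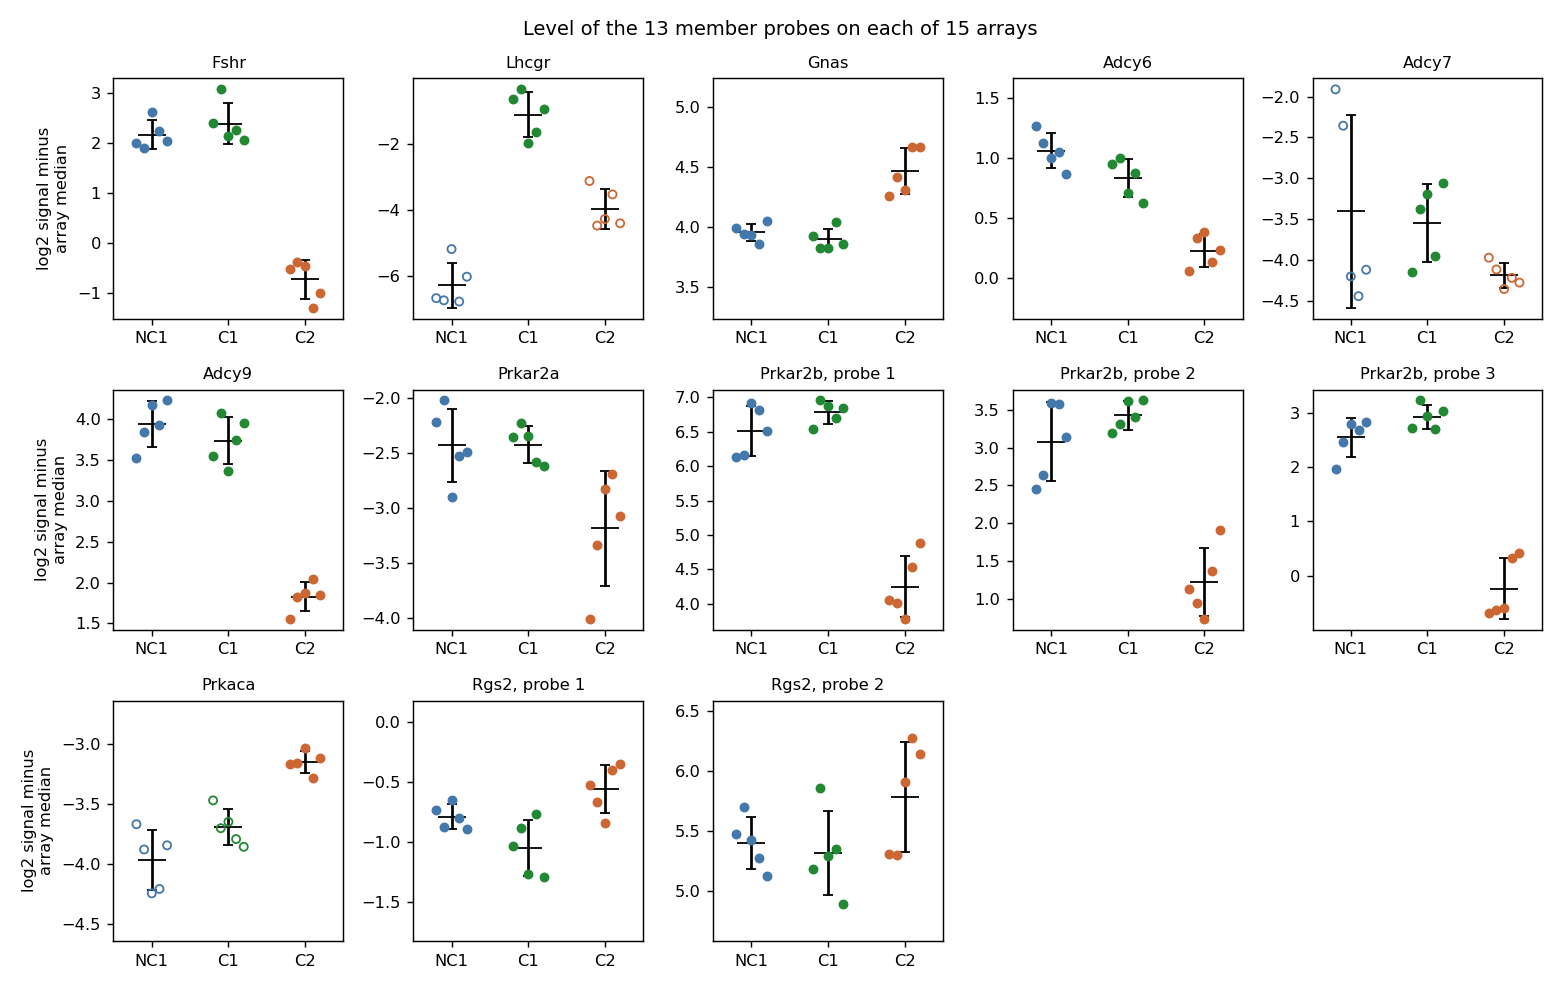
Level of each of the 13 member probes (log2 signal minus array median, vertical axis, own range in each panel) at NC1, C1 and C2. Points are arrays, replicates 1 to 5 from left to right, open where the stage had fewer than 5 arrays well above background, and bars are mean ± SD. Fshr, Adcy9 and the 3 Prkar2b probes lie lower on all C2 arrays than on any NC1 or C1 array, and Lhcgr is highest at C1.

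Fshr, the receptor of follicle-stimulating hormone, was present on all 15 arrays and fell sharply in ovulated complexes. Its level was 1.99, 1.90, 2.62, 2.24 and 2.04 in NC1 replicates 1 to 5. At C1 it was 2.39, 3.06, 2.13, 2.25 and 2.05, and at C2 it was -0.52, -0.38, -0.45, -1.29 and -0.99. The NC1 and C1 arrays overlapped, whereas all C2 arrays lay below them, with replicates 4 and 5 the lowest. Means were 2.16 ± 0.29 for NC1, 2.38 ± 0.41 for C1 and -0.73 ± 0.40 for C2 (SD, n = 5). Fshr was 8.59-fold lower at C2 than at C1 (log2 change -3.10, SE 0.21, limma adjusted p = 3.53e-09) and 7.38-fold lower than at NC1 (-2.88, adjusted p = 5.44e-09). The difference between C1 and NC1 was 0.22 with a 95% interval from -0.23 to 0.67 (limma adjusted p = 0.683). Across the 34 alternatives tried the fall from C1 to C2 lay between -3.52 and -2.79, the former without C2 replicates 1 to 3. Among the granulosa markers 8 of 9 valid ones also fell from C1 to C2, with Foxl2 the exception, and their summed signal went from 281 to 331 at C1 to 58.3 to 88.1 at C2.

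Lhcgr, the receptor of luteinising hormone, had another profile, with its highest level in the adult samples taken before ovulation. The probe was above background on none of the NC1 arrays, where it read -6.65, -6.72, -5.18, -6.75 and -6.01. It was seen on all 5 C1 arrays, at -0.67, -0.36, -1.98, -1.66 and -0.95, and on 3 of 5 C2 arrays, which read -3.12, -4.47, -4.27, -3.53 and -4.40. The 3 stages did not overlap. With NC1 readings at background only a bound can be given, by which the C1 level exceeded that of NC1 at least 12.1-fold (3.60 on the log2 scale, and 2.55 with normexp background correction, measured means -1.12 ± 0.68 and -6.26 ± 0.68, SD, n = 5). For the bound the C1 mean is set against the lowest signal that passed as well above background on each NC1 array. At C2, where 2 of 5 arrays were not well above background, the mean reading was -3.96 ± 0.60. Set against NC1 in the same way it was 1.70-fold higher, which is no lower bound because the mean includes those 2 arrays.

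The readings were compared between stages by an exact two-sided permutation test over 5 against 5 arrays. Since the NC1 readings and some C2 readings were at background, their differences order the stages and do not measure a fold. The mean readings differed by 5.14 for C1 minus NC1, -2.83 for C2 minus C1 and 2.30 for C2 minus NC1, each with p = 0.00794 (exact permutation), the smallest p that this design allows. After Benjamini-Hochberg adjustment over the 6 tests made on Lhcgr and Prkaca this became 0.00952 (exact permutation). Within each of the 4 array slides, each of which held all stages, the C1 minus NC1 difference in reading ran from 3.52 to 6.14 and the C2 minus C1 difference from -3.88 to -1.14. With normexp background correction the differences shrank to 2.62, -1.96 and 0.67, with the same exact permutation p.

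Genes of luteinising granulosa cells moved at the same time. The summed signal of 6 such markers was 0.604 to 0.942 at NC1, 20.8 to 82.3 at C1 and 170 to 251 at C2. From C1 to C2 the mean of Akr1c18 went from 1.92 to 7.08, the widest rise of the 6, while that of Star went from 0.92 to -0.13. Cyp11a1, which opens steroid synthesis, had means of -1.14, 4.32 and 5.20 at NC1, C1 and C2. Ptgfr, the receptor of prostaglandin F2 alpha, was like Lhcgr seen on no NC1 array and had means of 0.47 at C1 and -1.20 at C2. Progesterone receptor (Pgr) was above background on 1 of 15 arrays. Of the theca and stroma markers 0 of 6 valid ones were called from NC1 to C1, and their sums were highest in NC1 replicates 1 and 2. Whether the Lhcgr signal at C1 came from cumulus, mural granulosa, theca or luteal cells was not tested.

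**Figure D2:**
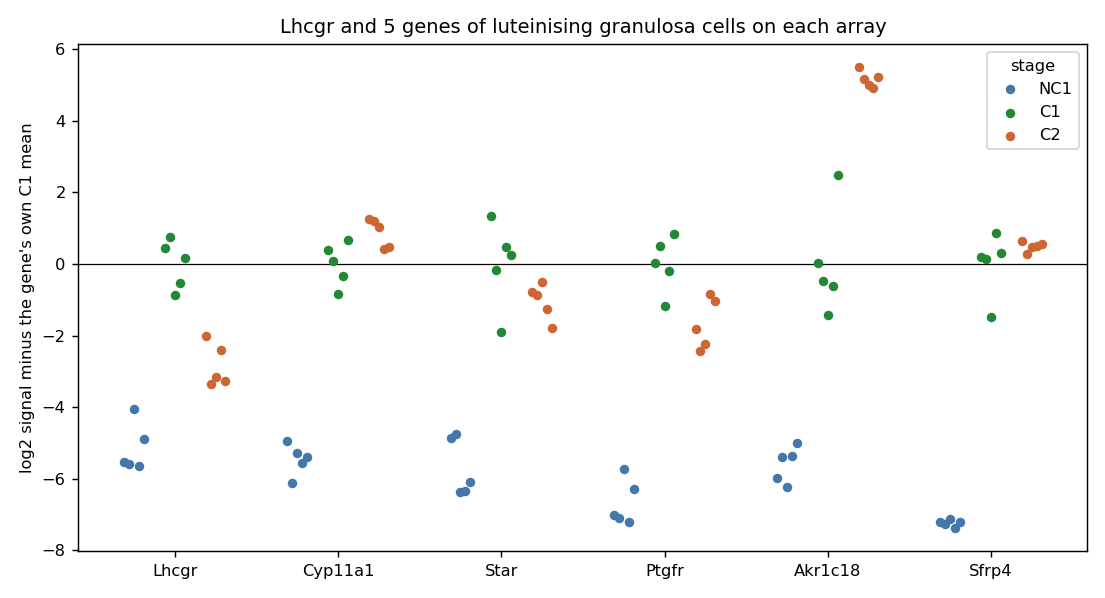
Lhcgr and 5 genes of luteinising granulosa cells on each array, as log2 signal minus the gene's own C1 mean (vertical axis), coloured by stage. All 6 genes are lowest at NC1. Lhcgr lies below all of its C1 points on the C2 arrays, whereas Akr1c18 lies above its own C1 mean on every C2 array.

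Gnas, which encodes the stimulatory G protein alpha subunit, rose modestly at ovulation. Its probe read 3.99, 3.94, 3.93, 3.86 and 4.05 at NC1 and 3.93, 3.83, 3.83, 4.04 and 3.86 at C1. At C2 it read 4.26, 4.42, 4.31, 4.66 and 4.67, above every array of the other stages and highest in replicates 4 and 5. Gnas was 1.48-fold higher at C2 than at C1 (log2 change 0.57, SE 0.10, limma adjusted p = 0.000125), and C1 did not differ from NC1 beyond the spread (-0.06, 95% interval from -0.27 to 0.15, adjusted p = 0.846). Scaled to spike-in controls the rise was 0.41 and was no longer called (limma adjusted p = 0.263), and scaled to the median of all gene probes it was 0.88. Gnas is an imprinted locus with overlapping transcripts, and which of them this probe measures is not known. Of 2 further Gnas probes that are on the array but not in the authors' table, 1 was above background on no array and 1 on a single C1 array.

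Among the cyclases, Adcy9, a form that responds poorly to forskolin, had the widest change. It read 3.52, 3.84, 4.17, 3.93 and 4.22 at NC1, 3.55, 4.07, 3.36, 3.74 and 3.95 at C1, and 1.56, 1.82, 1.87, 2.04 and 1.85 at C2. All C2 arrays lay below all others, with no split between replicates 1 to 3 and replicates 4 and 5. The fall from C1 was 3.74-fold (log2 change -1.90, SE 0.16, limma adjusted p = 2.65e-08) and lay between -2.06 and -1.60 under the alternatives. Between NC1 and C1 the difference was -0.20 (95% interval from -0.53 to 0.13).

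Adcy6, a cyclase that calcium inhibits, declined in smaller steps. Its level was 1.27, 1.12, 1.00, 1.05 and 0.87 at NC1, 0.94, 1.00, 0.70, 0.87 and 0.63 at C1, and 0.05, 0.33, 0.38, 0.13 and 0.24 at C2. NC1 and C1 overlapped, and C2 lay below both. The change was -0.60 from C1 to C2 (1.52-fold lower, SE 0.11, limma adjusted p = 0.000137) and -0.23 from NC1 to C1 (adjusted p = 0.288). The fall was -0.29 and not called in the authors' table and when arrays were scaled to the median of all gene probes (limma adjusted p = 0.196 and 0.197), and -0.76 with spike-in scaling (adjusted p = 0.0283).

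Adcy7, a cyclase that protein kinase C can enhance, was dim and differed more within NC1 than between stages. It read -1.91 and -2.36 in NC1 replicates 1 and 2 but -4.20, -4.44 and -4.12 in replicates 3 to 5, which are the same arrays that parted in stroma, red cell and oocyte markers. At C1 it read -4.14, -3.38, -3.19, -3.95 and -3.06 and at C2 -3.97, -4.12, -4.36, -4.22 and -4.28. The change from C1 to C2 was -0.64 (95% interval from -1.51 to 0.22, limma adjusted p = 0.191). Without NC1 replicates 1 and 2, whose spread enters the shared variance, the same change had a limma adjusted p of 0.00886.

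The regulatory subunit Prkar2b, which binds cAMP and holds the catalytic subunits inactive, fell on all of its 3 probes. The brightest read 6.14, 6.16, 6.92, 6.82 and 6.51 at NC1, 6.54, 6.95, 6.87, 6.69 and 6.84 at C1, and 4.05, 4.02, 3.78, 4.53 and 4.88 at C2. The next had means of 3.08 ± 0.52, 3.43 ± 0.19 and 1.22 ± 0.45 for the successive stages, and the third 2.54 ± 0.36, 2.92 ± 0.22 and -0.23 ± 0.56 (SD, n = 5). On every probe all C2 arrays lay below all NC1 and C1 arrays, C2 replicates 4 and 5 were the highest at C2, and NC1 replicates 1 and 2 were the lowest at NC1. The log2 changes from C1 to C2 were -2.53 (SE 0.20), -2.21 (SE 0.24) and -3.16 (SE 0.23), or 5.76-, 4.62- and 8.92-fold, with limma adjusted p of 1.92e-08, 6.00e-07 and 7.36e-09. From NC1 to C1 they were 0.27, 0.35 and 0.38, none of them called (adjusted p = 0.564, 0.515 and 0.453). Over the alternatives the C1 to C2 change of the 3 probes stayed called and lay between -3.56 and -1.79.

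Prkar2a, the related regulatory subunit, moved less. Its probe read -2.22, -2.03, -2.90, -2.53 and -2.49 at NC1, -2.35, -2.23, -2.35, -2.58 and -2.62 at C1, and -4.00, -3.34, -2.83, -2.69 and -3.07 at C2. The C2 arrays lay below all C1 arrays, replicate 1 by far the most, and overlapped NC1. The change from C1 to C2 was -0.76 (SE 0.21, limma adjusted p = 0.00585). The call was lost under 16 of the 34 alternatives. These were the authors' table (-0.45, limma adjusted p = 0.0913), the median of all gene probes (-0.45, adjusted p = 0.0915), quantile scaling, normexp, no filter, the replicate number, slide or scan as a block, the methods' one-factor test (adjusted p = 0.0292), a 2-fold minimum, leaving out any of C1 replicates 1, 2 or 3 or C2 replicates 1 or 2, and leaving out C2 replicates 1 to 3 (-0.45, limma adjusted p = 0.0912). Leaving out C2 replicate 1 reduced the change to -0.55 (limma adjusted p = 0.0119).

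Prkaca, the catalytic subunit, had a probe near background, and its readings were highest at C2. It was seen on 4 NC1, 3 C1 and 5 C2 arrays. The readings were -3.67, -3.88, -4.25, -4.21 and -3.85 at NC1, -3.47, -3.70, -3.65, -3.79 and -3.86 at C1, and -3.17, -3.16, -3.04, -3.28 and -3.12 at C2. All C2 arrays lay above all others. With 2 of 5 C1 arrays not well above background, the difference in mean reading is no measure of a fold. It was 0.54 from C1 to C2 (exact two-sided permutation p = 0.00794, the smallest this design allows, adjusted p = 0.00952) and 0.27 from NC1 to C1 (exact permutation p = 0.0714). With spike-in scaling the former was 0.38 (exact permutation p = 0.222).

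Rgs2 encodes a protein that shortens G protein signals, mainly by acting on Gq, and its 2 probes gave similar changes with different calls. The dimmer probe read -0.73, -0.88, -0.65, -0.80 and -0.90 at NC1, -1.04, -0.88, -1.27, -0.77 and -1.30 at C1, and -0.52, -0.67, -0.84, -0.40 and -0.35 at C2. The brighter probe read 5.48, 5.70, 5.42, 5.28 and 5.13 at NC1, 5.18, 5.86, 5.30, 5.35 and 4.90 at C1, and 5.31, 5.30, 5.91, 6.28 and 6.14 at C2. The stages overlapped on both probes, and C2 replicates 4 and 5 were the 2 highest C2 arrays on both. The change from C1 to C2 was 0.49 on the dimmer probe (SE 0.12, limma adjusted p = 0.00268) and 0.47 on the brighter one (95% interval from 0.03 to 0.91, adjusted p = 0.061). Without C2 replicates 4 and 5 these were 0.37 (limma adjusted p = 0.0354) and 0.19 (adjusted p = 0.467), and without C2 replicates 1 to 3 the brighter probe changed by 0.89 and was called (adjusted p = 0.00399). Scaling moved both probes, to 0.80 and 0.78 on the median of all gene probes, where both were called, and to 0.33 on the dimmer probe with spike-in controls (limma adjusted p = 0.39). Neither probe was called between NC1 and C2.

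**Figure D3:**
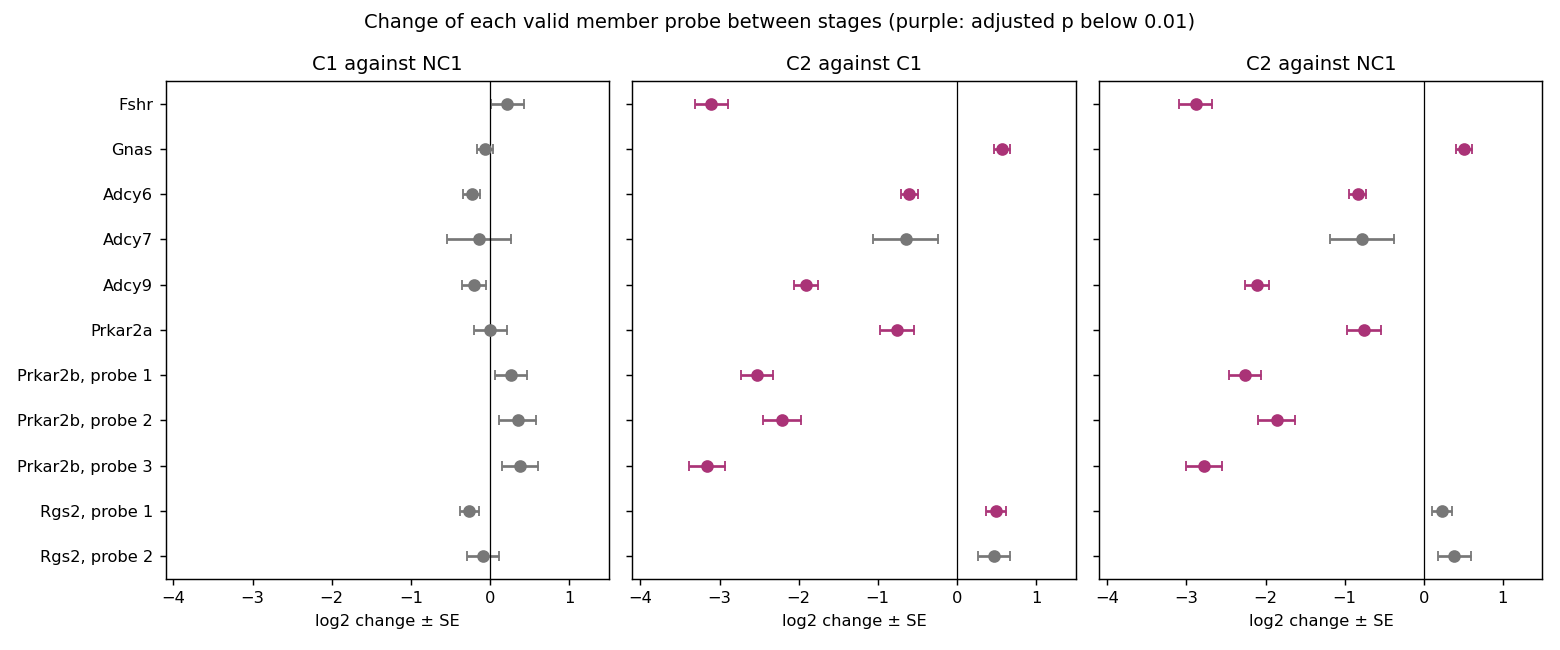
Log2 change ± SE (horizontal axis) of the 11 valid member probes in the 3 comparisons. Purple marks a limma adjusted p below 0.01, and the dim probes of Lhcgr and Prkaca are not shown. From NC1 to C1 none of the 11 is purple, and from C1 to C2 the changes of Fshr, Adcy9 and Prkar2b lie beyond -1.

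Set side by side from C1 to C2, the 7 probes called lower belong to a receptor, 2 cyclases and both type II regulatory subunits, and the 2 called higher to Gnas and Rgs2. The groups did not overlap for 8 of the 11 valid probes, where 43.9% of all valid probes did not overlap. Within every slide each of the 9 called probes differed in the direction of its pooled change. The calls that rest least on the scaling are those of Fshr, Adcy9 and Prkar2b. When arrays were scaled on the spike-in controls, the median of all valid probes shifted by -0.14 from C1 to C2 6 lower and 0 higher member probes were called, and 38.1% of all called probes were higher. When they were scaled on the median of all gene probes, the shift was 0.33, 5 lower and 3 higher member probes were called, and 74.7% of all called probes were higher. With the main scaling that share was 53.3%.

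**Figure D4:**
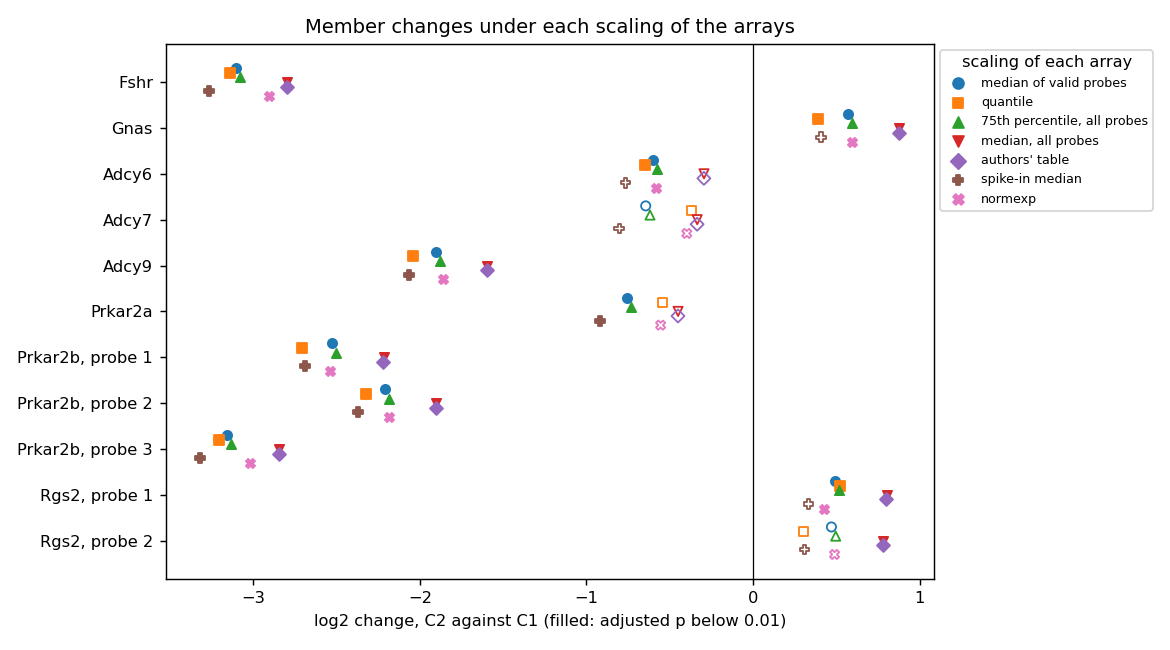
Log2 change from C1 to C2 (horizontal axis) of the 11 valid member probes under 7 ways of scaling the arrays, filled where the limma adjusted p was below 0.01. Fshr, Adcy9 and Prkar2b are filled throughout, Adcy7 is open throughout, and Adcy6, Prkar2a, Gnas and Rgs2 each have open symbols.

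A wider list of 91 genes of the same pathway was examined in addition, with 1 valid probe (the brightest) per gene for 56 of them. From NC1 to C1, 1 of the 56 was called, against 2.91% of the 12681 genes tested (2.07% higher and 0.844% lower). This was Rgs9, a regulator of G protein signals, which rose by 1.70 (limma adjusted p = 0.00116) and by a further 2.62 from C1 to C2 (adjusted p = 5.73e-07), from -4.51 ± 0.31 (SD, n = 5) through -2.82 ± 0.55 to -0.20 ± 0.58. The Rgs9 probe was well above background on 4 of 5 NC1 arrays. With normexp, and without NC1 replicates 1 and 2, none of the 56 was called from NC1 to C1. From C1 to C2, 30 were called, 20 higher and 10 lower, against 49.5% of all genes (26.1% higher and 23.5% lower). The median change of the 56 was 0.25 and that of all genes 0.02. From NC1 to C2, 28 were called, 19 higher and 9 lower, against 53.1% (27.1% higher and 26% lower). The split from C1 to C2 depended on the scaling, with 6 higher and 8 lower on spike-in controls and 22 higher and 6 lower on the median of all gene probes, as did that of all called probes, of which 38.1% and 74.7% were higher under these scalings. From NC1 to C2 it was 10 higher and 6 lower, and 19 higher and 6 lower.

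Of 16 other G protein subunits, 10 were called higher and 2 lower from C1 to C2, where 26.1% and 23.5% of all genes were. The 10 changes ran from 0.40 to 1.23, and with spike-in scaling the whole wider list had 6 higher calls. Gna13, an alpha subunit, rose by 1.23 (SE 0.13, limma adjusted p = 3.53e-07), and Gng12, a gamma subunit, by the same amount. Gnai1, which inhibits adenylyl cyclase, fell by 1.38 (SE 0.16, adjusted p = 1.30e-06) and Gng11, another gamma subunit, fell by 1.73. From NC1 to C2 the highest called gene of this group was Gng12, at 1.56, and the lowest Gng11, at -1.56. Of the 7 remaining cyclases 2 were valid. Adcy3 rose by 0.95 (adjusted p = 6.74e-05) and Adcy5, which like Adcy6 is inhibited by calcium, fell by 1.30 (adjusted p = 0.000364). Adcy4 was seen on 5 NC1, 5 C1 and 3 C2 arrays and Adcy2 on 3, 3 and 0, while Adcy1, Adcy8 and Adcy10 were seen on none.

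The type I regulatory subunits moved against the type II subunits. Prkar1b rose by 1.83 from C1 to C2 (SE 0.23, limma adjusted p = 3.42e-06), and Prkar1a by 1.08 on its brighter probe (SE 0.15, adjusted p = 8.56e-06), although its other valid probe was not called. The catalytic subunit Prkacb changed by -0.21 (adjusted p = 0.273). Among the kinase inhibitors Pkig rose by 0.62 (adjusted p = 7.44e-05), Pkib fell by 0.86 (adjusted p = 1.51e-05), and Pkia was seen on 4 NC1, 3 C1 and 0 C2 arrays. None of the 5 valid genes of this group was called from NC1 to C1. Rapgef3, an exchange factor that cAMP activates without protein kinase A, fell by 1.38 from C1 to C2 (SE 0.29, adjusted p = 0.00067), and Rapgef4, its relative, was seen on 5 NC1, 4 C1 and 0 C2 arrays.

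**Figure D5:**
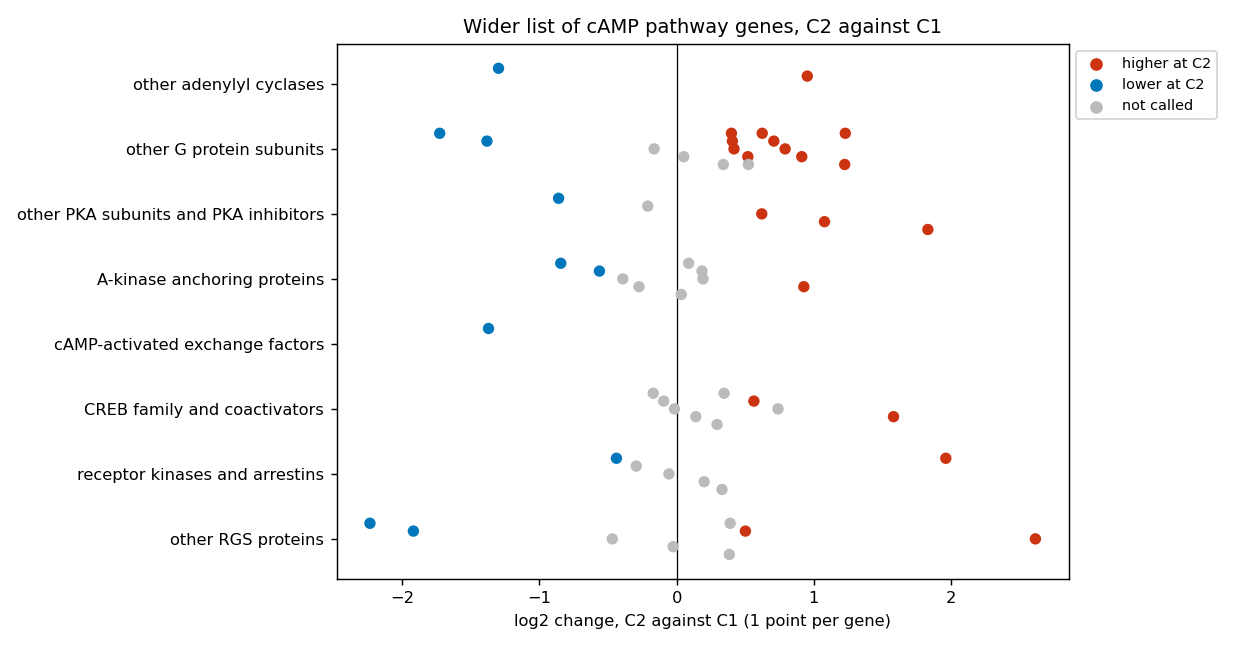
Log2 change from C1 to C2 (horizontal axis) of the 56 genes of the wider list with a valid probe, 1 point per gene, by group. Red and blue points are called higher and lower at C2 by limma at an adjusted p below 0.01 and grey points are not called. The G protein subunits hold 10 red points of 16, and the anchoring proteins and the CREB family with its coactivators are mostly grey.

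The anchoring proteins, which tether protein kinase A, were called in 3 of 9 genes from C1 to C2. Akap10 rose by 0.93 (limma adjusted p = 6.42e-06) and Akap12 fell by 0.84 (adjusted p = 0.000158). Akap11 fell by 0.56 (limma adjusted p = 8.79e-05), and at -0.76 it was the lowest called anchoring protein from NC1 to C2. In both comparisons 2 of its 3 valid probes were called. Of 9 genes of the CREB family and its coactivators 2 were called, both transcription factors that protein kinase A phosphorylates. Crem was higher by 1.58 (SE 0.17, limma adjusted p = 5.96e-07). Atf1 was higher by 0.56 on its brighter probe (adjusted p = 0.00624), although its other valid probe was not called. From NC1 to C2 the lowest called gene of this group was Crtc3, a coactivator, at -0.68. Among receptor kinases and arrestins 2 of 6 were called. Arrb1, which uncouples activated receptors from G proteins, rose by 1.96 (SE 0.12, adjusted p = 1.34e-09), and Grk6, a receptor kinase, fell by 0.44 (adjusted p = 0.00372). Besides Rgs9, the other RGS genes called from C1 to C2 were Rgs10, higher by 0.50, and Rgs13 and Rgs3, lower by 2.24 and 1.92. Of 34 listed genes on the array without a valid probe, 14 were seen on no array, and 5 were seen on all arrays of one stage and none of another. These 5, picked out after their values were seen, were Rgs1 (at least 7.19-fold higher at C2 than at NC1), Gnao1 (at least 6.77-fold), Rgs6 (at least 2.24-fold), Gng13 (C1 above C2 by at least 5.48-fold) and Rapgef4 (at least 3.23-fold higher at NC1 than at C2). Where a gene had several valid probes, their calls from C1 to C2 differed for 5 of 15 genes.

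Finally, the named genes of the authors' table were ranked by their likeness to each receptor, as the Pearson correlation of levels over the 15 arrays. The arrays of a stage share their stage, so the values describe stage profiles and carry no test. Closest to Fshr were Ly6g6e (r = 0.990), Tmem25 (0.986), Heph (0.986), Icosl (0.985) and Cpamd8 (0.984), all lower at C2. Heph, a copper-dependent iron oxidase, had means of 4.67, 4.70 and 1.56 at NC1, C1 and C2. Closest to Lhcgr were Prlr (r = 0.983), Bhmt (0.957), Oxtr (0.947), Sstr1 (0.943) and Bpil3 (0.940). Prlr is the prolactin receptor. Oxtr, the oxytocin receptor, had means of -0.04, 2.82 and 0.78. Sstr1, a somatostatin receptor, was like Lhcgr above background on no NC1 array.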

How the data were processed

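Total RNA of each pool was labelled with Cy3 and hybridized to Agilent arrays. Files deposited by the authors hold, per array, what the scanner software wrote (background-subtracted intensity per spot, Feature Extraction 10.7.1.1 per the file headers, 10.5.1.1 per the submitters' processing notes) and, for the series, a table of log2 values. The deposited log2 table equals the log2 intensity plus 1 constant per array (SD of the difference over probes at most 0.00742) and was used for membership and as an alternative. Spots of a probe were averaged after leaving out control and outlier spots, and log2 values were centred on the median of the 17324 valid probes on the same array (20 missing values). Stages were compared with limma 3.58.1 (R 4.3.3) in 1 model over 15 arrays, with Benjamini-Hochberg adjustment over all valid probes and a threshold of 0.01 after the methods of the study. Probes outside the filter were tested by exact permutation (scipy 1.17.1). The fit was tested on simulated data. In a simulation of the comparison of C2 with C1 over 17324 probes, 50 probes were given each change and the rest none. The fit recovered 20% of changes of 0.5, 76% of changes of 1, 68% of changes of -1 and 100% of changes of 2. In the real comparison 47.6% of valid probes were called, which loosens the adjusted threshold, so these shares do not carry over to it. The scanner files hold no mean signal, so normexp (offset 50) used median signals. Probe symbols come from RefSeq (GRCm38.p6) by accession. Named genes are all members, the highest and lowest called gene of each group of the wider list per comparison, every cyclase, kinase subunit, inhibitor and exchange factor of that list, and the 5 genes most like each receptor. The members and lists were chosen with earlier results of these data known. The number of arrays limits the precision. Array slide was tested as a block, and replicate numbers were not taken to pair samples.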

Additional observations from a re-analysis of the deposited data

How the results depend on the processing

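A total of 34 alternatives were computed for the counts of called probes and genes, 3 of which (leaving out NC1 replicates 1 and 2, C2 replicates 1 to 3, or C2 replicates 4 and 5) were chosen after seeing the data. No called change reversed its direction. Of 1242 tested changes of the 13 member probes under these alternatives, 1180 stayed on the same side of the threshold, 54 lost the call and 8 gained it. In these counts the exact permutation tests of Lhcgr and Prkaca were judged at an unadjusted p of 0.05, not 0.01. From NC1 to C1, 1 member probe was called with the filter in at least 1 stage and with no filter, in both cases that of Lhcgr, which passes the former only through C1. With spike-in scaling 5 member probes were called from NC1 to C2, and 14 and 16 genes of the wider list from C1 to C2 and from NC1 to C2. Asking also for a 2-fold change left 5 member probes, those of Fshr, Adcy9 and Prkar2b, in each of C2 against C1, C2 against NC1 and any stage (main 9, 8 and 9), and 13 and 15 genes of the wider list. The single gene of the wider list called from NC1 to C1 became 2 with quantile scaling, 3 at an adjusted p of 0.05, and 0 with normexp, with the methods' one-factor test and without NC1 replicates 1 and 2. Leaving out single arrays gave 0 member probes from NC1 to C1, 8 to 9 from C1 to C2, 7 to 8 from NC1 to C2 and 7 to 9 in any stage, and 1 to 2, 26 to 30 and 25 to 28 genes of the wider list. For Lhcgr it gave 4.95 to 5.41, -3.05 to -2.64 and 2.10 to 2.58. With only C2 replicates 4 and 5 left at C2, the Lhcgr differences of -2.84 against C1 and 2.30 against NC1 had an exact permutation p of 0.0952, the smallest that 2 arrays against 5 allow. The lower bound of the rise of Lhcgr from NC1 to C1 was 3.60 on the log2 scale and 2.55 with normexp. The cause of these shifts was not tested.

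Samples with the same replicate number in different stages correlated in their deviations from the stage means at -0.24 to 0.35, above 0.1 in 4 of 15 pairs. Same-numbered NC1 and C1 samples gave 0.07, 0.35, 0.06, 0.34 and 0.34 for replicates 1 to 5. Those with different numbers gave -0.39 to 0.29. Same-numbered pairs with a C2 sample gave -0.24 to 0.21. What the numbers share between stages is not known. With the replicate number as a block, 8 member probes were called from C1 to C2, 7 from NC1 to C2, 0 from NC1 to C1 and 7 in any stage, and 29, 27 and 1 genes of the wider list. With slide as a block, 8, 8, 0 and 9 member probes and 27, 26 and 1 genes were called, and scan time gave the same since each slide had 1. Depth on arrays is the signal over background, which limits Lhcgr, Prkaca and Adcy7.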
